A study of Microtus ochrogaster with 40 samples.

Results

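The genes described here, 8 in number, are ones used as marks of microglia: the surface receptors Cx3cr1, Csf1r, P2ry12 and Trem2, and the complement genes C1qa, C1qb, C1qc and C3. They were picked by symbol, without regard to letter case, and all 8 are present among the 19130 genes listed for every library. The data are single-nucleus RNA counts of 40 prairie voles (Microtus ochrogaster), rodents that form lasting bonds between mates, taken from the nucleus accumbens with 1 animal in each library. Each vole had spent 16 days with a partner, which was of the opposite sex in the mate groups and of the same sex in the peer groups. The 4 groups were 11 mate-paired females, 8 peer-paired females, 11 mate-paired males and 10 peer-paired males. None of the groups carried a labelled mutation or drug, and the animals' ages, and which of them shared a cage, are not given in the sources used here. Members of a pair may not be independent of each other, which the p-values below do not take into account.

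Microglia are the resident macrophages of the brain, and they read their surroundings through receptors that few other brain cells carry. CX3CR1 binds fractalkine (Cx3cl1) from neurons, CSF1R binds the survival factors Csf1 and Il34, P2RY12 senses nucleotides leaked by nearby cells, and TREM2 binds lipids and apolipoproteins and signals through the adaptor Tyrobp. C1qa, C1qb and C1qc encode the chains of C1q, the recognition molecule of the classical complement pathway, whose activation leads to the cleavage of C3. Fragments of C3 on a surface are bound by complement receptor 3 on microglia (Itgam with Itgb2), a route known from the pruning of synapses during development.

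After filtering, 177991 nuclei were kept, 1767 to 7661 in a library, with a median UMI count (unique molecular identifiers, 1 for each RNA molecule counted) per nucleus of 653 to 2189.5 and kept totals of 2946712 to 13348189 UMIs. Grouping without the 8 genes gave 18 clusters, of which 1, the microglia-like cluster with 4549 nuclei (2.56%), held the microglial genes. In it 17 of 18 microglial markers other than the 8 genes passed the fold needed to name a cluster, and the other, Siglech, had 0 UMIs in it. Markers of lymphocytes and other leukocytes were at 0 to 8 UMIs each in the cluster, while of 9 border-macrophage markers Ms4a7 had 1068, Stab1 634, Mrc1 236, F13a1 70, Lyve1 30, Cd163 27 and the other 3 had 0 to 3. The neuronal gene Snap25 stood at 401 UMIs per 1000000 UMIs (CPM) in this cluster against 1830 CPM elsewhere. The median microglia-like nucleus held 608 UMIs, and an animal gave 3 to 254 of them, with a median of 105.5. The library labelled male mate 2 stood apart, with 3 microglia-like nuclei; it and male peer 1, with 18, fell under the 20 nuclei required and entered no comparison within microglia-like nuclei, which left 38 animals. Library pairs shared 2 to 146 cell barcodes (median 30), at most 2.22% of the smaller library.

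All 4 receptors were read mainly from the microglia-like nuclei. Cx3cr1, the fractalkine receptor, stood at 5747 CPM there and 3.88 CPM in all other nuclei together, and 93.4% of its UMIs lay in the cluster. Csf1r, the growth-factor receptor on which microglia depend, stood at 4491 against 3.74 CPM, with 92.0% of its UMIs in the cluster. P2ry12, the nucleotide receptor, stood at 3221 against 3.08 CPM, with 90.9%. Trem2 was the receptor with the fewest UMIs, 342 against 0.563 CPM, with 85.4% in the cluster. How much of each gene's RNA was captured is not known here, so these levels compare clusters for 1 gene and not genes with each other. A UMI of Cx3cr1 was seen in 93.2% of microglia-like nuclei, of Csf1r in 90.0%, of P2ry12 in 82.9% and of Trem2 in 19.1%. When every nucleus was thinned to 500 UMIs the shares were 89.0%, 84.9%, 77.0% and 15.7%. As a measure of background, Cx3cr1 was seen in 0.438% of the nuclei of the largest neuronal cluster, medium spiny neurons of the D2 kind, whose median depth of 1928 UMIs exceeded that of the microglia-like nuclei.

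The complement genes had the same location. C1qb stood at 4907 CPM in the microglia-like nuclei and 6.63 CPM elsewhere, C1qa at 1967 against 3.06 CPM, and C1qc at 1613 against 3.16 CPM. For these 3 chains 87.7%, 86.1% and 83.1% of all UMIs lay in the cluster. C3, which in rodent brain is reported from both microglia and reactive astrocytes, stood at 2190 CPM in the microglia-like nuclei, 2.44 CPM elsewhere and 3.25 CPM in the astrocyte-like cluster, so that 89.6% of its UMIs were in microglia-like nuclei. In the astrocyte-like nuclei C3 had 0.438 UMIs for each UMI of Cx3cr1, against 0.381 in the microglia-like nuclei. Over all nuclei outside the microglia-like cluster it had 0.628. The source of the C3 UMIs in astrocyte-like nuclei was not tested. C1qb was seen in 87.3% of microglia-like nuclei, C3 in 64.9%, C1qa in 63.7% and C1qc in 58.8%, or 82.5%, 58.1%, 56.0% and 51.0% after thinning. In the D2 neurons C1qb was seen in 0.869% of nuclei. The level of a gene in the microglia-like nuclei over that in all others ran from 511-fold for C1qc to 1481-fold for Cx3cr1. These folds describe a cluster made from the same nuclei and carry no test.

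**Figure D1:**
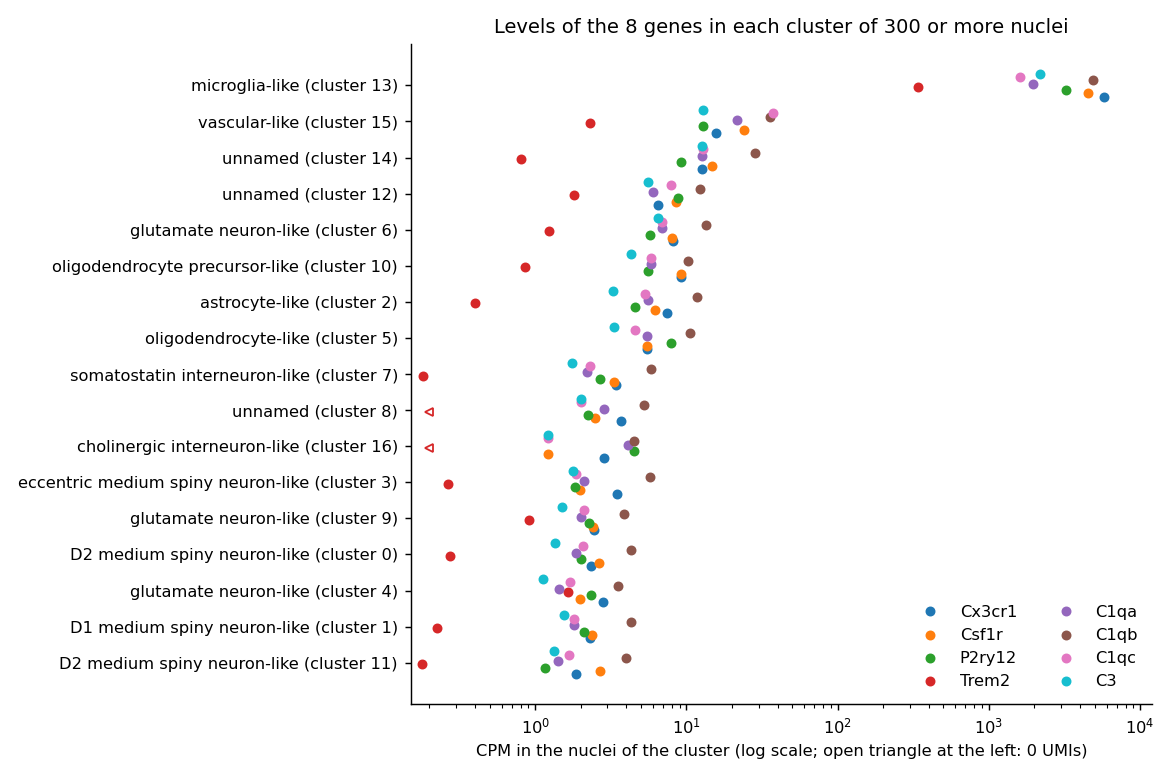
Level of each of the 8 genes (CPM, log scale) in each cluster but the smallest (196 nuclei), from summed UMIs of all 40 animals, with open triangles at the left for 0 UMIs. For every gene the microglia-like cluster is highest, and the vascular-like cluster is next, 43.2-fold (C1qc) to 366-fold (Cx3cr1) lower.

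Most microglia-like nuclei carried several of the genes at once. The median nucleus had UMIs of 6 of the 8 genes, 291 nuclei (6.40%) had all 8, and 11 had none. Outside the cluster 6291 of 173442 nuclei (3.63%) held at least 1 UMI of any of the genes, and 381 held 3 or more. Those 381 nuclei carried 26.1% of the 8583 UMIs found outside the cluster.

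The vascular-like cluster, 1379 nuclei led by genes such as Flt1, Cldn5 and Vtn, held the next highest level of all 8 genes. C1qc was at 37.4 CPM there, C1qb at 35.5, Csf1r at 24.0, C1qa at 21.7, Cx3cr1 at 15.7, P2ry12 and C3 at 12.9 each, and Trem2 at 2.31 CPM. The mix differed from that of the microglia-like nuclei, as C1qc had 2.38 UMIs for each Cx3cr1 UMI in vascular-like nuclei and 0.281 in microglia-like nuclei. Only 30 vascular-like nuclei, from 19 libraries, had 3 or more UMIs of the 8 genes. Together these 30 held 49 UMIs of C1qc, 47 of C1qb, 33 of Csf1r, 28 of C1qa, 22 of Cx3cr1, 18 of P2ry12, 14 of C3 and all 5 of Trem2. Mrc1, the mannose receptor of border macrophages, stood at 265 CPM in these 30 nuclei, 19.5 CPM in the remaining vascular-like nuclei and 75.9 CPM in microglia-like nuclei. Stab1 (241, 106 and 204 CPM), F13a1 (96.4, 11.5 and 22.5) and Cd163 (18.1, 0.999 and 8.69) had the same order, and Pf4 was also highest in the 30 nuclei (42.2, 3.00 and 0.965). Ms4a7 was the exception, at 6.03 CPM in the 30 nuclei, 0 in the remaining ones and 344 CPM in microglia-like nuclei. The endothelial receptor Flt1 stood at 1682 CPM in the 30 nuclei and 4083 CPM in the remaining ones. The 30 nuclei were picked by the genes described, so these values are a description, and the part of doublets or of border macrophages in them was not tested.

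Over all nuclei outside the cluster, too, each of the other genes had more UMIs per Cx3cr1 UMI than in the microglia-like nuclei, most of all C1qc. C1qb had 1.71 UMIs for each Cx3cr1 UMI outside the cluster and 0.854 inside it, C1qa 0.787 and 0.342, and C1qc 0.814 and 0.281. C3 had 0.628 and 0.381, Csf1r 0.963 and 0.782, and P2ry12 0.794 and 0.560. Trem2 had 0.145 and 0.0595, so that all 7 ratios were higher outside the cluster.

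Outside the microglia-like nuclei, Trem2 took its largest share of the 8 genes' UMIs in glutamate neuron-like nuclei, a pattern singled out after the values were seen. In the 3 glutamate neuron-like clusters Trem2 made up 110 of 2469 UMIs of the 8 genes, 4.46% (95% exact binomial interval 3.68 to 5.35). It made up 1.40% (1.31 to 1.48) in the microglia-like nuclei and 1.18% (0.923 to 1.48) in all remaining nuclei. The 3 clusters were not alike. Cluster 6, which held most of those UMIs, had 33 of 1528 or 2.16% (1.49 to 3.02), below unnamed cluster 12 with 3.13% (1.36 to 6.06), and cluster 9 had 18 of 349 or 5.16% (3.09 to 8.03). The share was highest in cluster 4, with 59 of 592 UMIs or 9.97% (7.67 to 12.7). They came from 23 animals, with no more than 7 nuclei holding a Trem2 UMI in any of them. In 56 of the 58 nuclei of that cluster with a Trem2 UMI, Trem2 was the sole gene of the 8 to be seen. The level was low all the same, 1.65 CPM in that cluster, where the median nucleus held 2630 UMIs, and only 0.0692% of its nuclei showed Trem2 after thinning. In the RefSeq annotation of the vole genome Trem2 lies between Treml1 and Treml2, and whether reads from overlapping transcripts or the opposite strand were counted to it is not given in the sources used here. The intervals cover counting error only.

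Within the microglia-like nuclei a finer grouping gave 9 sub-clusters. Sub-clusters 5 and 9, 544 nuclei or 12.0%, were led by genes of oligodendrocytes and neurons. In sub-cluster 9, with 85 nuclei, Cx3cr1 was at 880 CPM and Trem2 at 36.0 CPM. Across the other 7 sub-clusters Cx3cr1 ran from 5268 to 7326 CPM, Csf1r from 3700 to 6098, P2ry12 from 2967 to 4230 and Trem2 from 308 to 486. C1qb ran from 3502 to 7337 CPM, C1qa from 1325 to 3053, C1qc from 1166 to 2332 and C3 from 1739 to 3003. The lowest sub-cluster of the 7 was number 4 for Cx3cr1, Csf1r, C1qa, C1qb, C1qc and C3. Sub-cluster 2, with 734 nuclei led by Mrc1, Apoe, Lyve1 and Cd163, had the highest Trem2 (486 CPM) and C1qa (3053 CPM). Sub-cluster 6, with 449 nuclei, was also led by Mrc1 and Apoe. Mrc1 stood at 274 CPM in sub-cluster 2 and 261 CPM in sub-cluster 6, and at most at 26.8 CPM in any other. Sub-cluster 7, with 421 nuclei, was led by Atp13a5, Apoe and Dcn. Sub-cluster 3, with 699 nuclei, had the highest Cx3cr1, Csf1r and P2ry12 and also the highest C1qb, C1qc and C3. Apoe, an apolipoprotein that TREM2 binds, was at 6192 CPM in sub-cluster 2 and 17.0 CPM in sub-cluster 3. It was also high in sub-clusters 6 (5330 CPM) and 7 (4588 CPM), where Trem2 was at 332 and 350 CPM. In sub-clusters 1, 3, 4 and 8 Apoe was at 44.7, 17.0, 48.7 and 93.1 CPM, and Trem2 at 308, 405, 335 and 384 CPM. No sub-cluster among the 7 lacked any of the 8 genes.

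The comparison the study was built for, mate against peer, was first made within microglia-like nuclei, over 21 mate-paired and 17 peer-paired animals. None of the 8 genes passed the test, and every one of them was estimated lower in mate-paired animals. The levels of the 8 genes varied together across animals in microglia-like nuclei, as given below. A direction shared by the 8, here or in the later comparisons, is therefore not 8 separate observations. Cx3cr1 ran from 2545 CPM through a median of 4869 to 8994 in mate-paired animals (mean 5243 ± 1748 SD, n = 21), and from 1971 through 5556 to 8226 in peer-paired animals (5791 ± 1676, n = 17). Csf1r ran from 1602 through 4016 to 7301 CPM in the former (4039 ± 1379) and from 1848 through 4232 to 6416 in the latter (4543 ± 1255). P2ry12 ran from 1342 through 2948 to 4487 CPM (2856 ± 926) and from 1158 through 3415 to 4632 (3349 ± 910). For each of these receptors the ranges of the groups overlapped almost wholly. Trem2 ran from 47.1 through 279.6 to 662 CPM in mate-paired animals (271 ± 142) and from 0 through 335 to 1013 in peer-paired animals (361 ± 254). Its 0 was that of male peer 6, where 21501 UMIs were read from microglia-like nuclei, which allows up to 140 CPM, and its highest value was that of male peer 7.

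The ranges of the complement genes overlapped between the groups as well. C1qa ran from 440 through 1490 to 3243 CPM in mate-paired animals (1674 ± 807) and from 764 through 1742 to 3700 in peer-paired animals (1980 ± 895). C1qb ran from 1163 through 3848 to 9963 CPM (4197 ± 1995) and from 1897 through 4947 to 9727 (5045 ± 2151). C1qc ran from 471 through 1306 to 3039 CPM (1413 ± 650) and from 320 through 1614 to 2933 (1617 ± 719). Female mate 2 was the lowest mate-paired animal for each of the 3 C1q chains, and female mate 7 was the highest for C1qb and C1qc. C3 ran from 788 through 1836 to 3243 CPM in mate-paired animals (1913 ± 699) and from 1084 through 2201 to 4744 in peer-paired animals (2370 ± 914). Its highest animal was female peer 6.

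**Figure D2:**
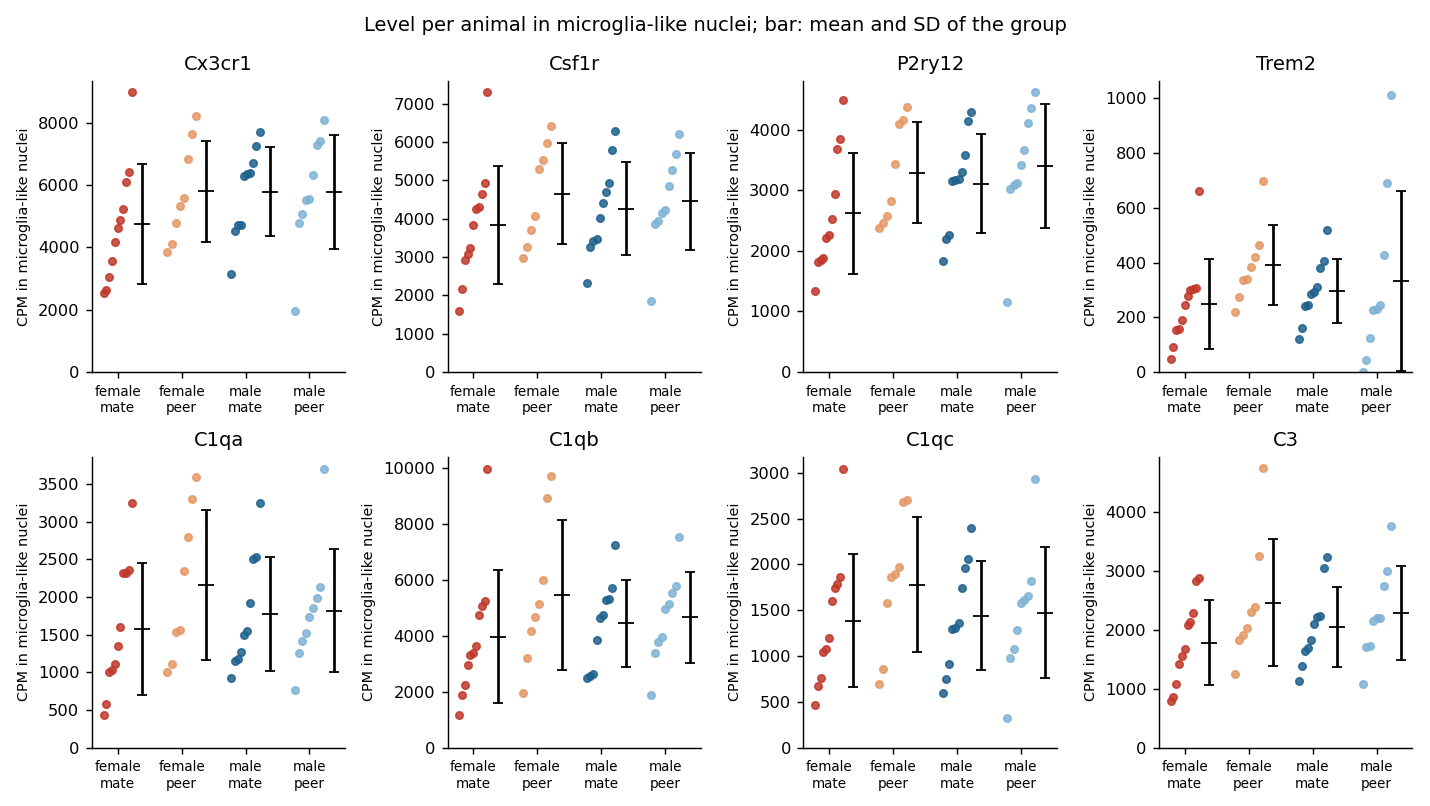
Level of each of the 8 genes in microglia-like nuclei (CPM), 1 point per animal, in 11 mate-paired and 8 peer-paired females and 10 mate-paired and 9 peer-paired males, with the mean and SD. The groups overlap for every gene, and Trem2 reaches its highest value, 1013 CPM, and its lowest, 0, in peer-paired males.

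Over the 2481 genes tested in microglia-like nuclei by edgeR's quasi-likelihood test with Benjamini-Hochberg adjustment, 0 genes (0%) passed an adjusted p under 0.05 for pairing, and 4.96% had an unadjusted p under 0.05. Of the 8 genes 0 passed either limit. With doublets kept 3 of the 8 had an unadjusted p under 0.05 (11.1% of genes) and with at least 50 nuclei an animal 2 (10.1%). Without a filter on low counts it was 1 (5.93%), and without the sub-clusters of other lineages 1 (5.29%). All 8 had a log2 fold change below 0, with a median of -0.24 against 0.01 over all genes tested, of which 47.8% were below 0. With a term for blocks of 10 consecutive sample numbers in the labels, C1qa (0.00146) and C1qc (0.05) lay above 0, and Cx3cr1 (-0.02), Csf1r (-0.03), C1qb (-0.03), C3 (-0.06), P2ry12 (-0.09) and Trem2 (-0.33) nearer to it. The lowest value was that of Trem2, with a log2 fold change of -0.50 (SE 0.26, 95% interval -1.03 to 0.03, edgeR adjusted p = 0.909). C3 followed with -0.32 (SE 0.18, -0.69 to 0.04), then C1qb with -0.27, C1qa with -0.25, P2ry12 with -0.23, C1qc with -0.20 and Csf1r with -0.18. Cx3cr1 was nearest to 0 with -0.15 (SE 0.16, interval -0.47 to 0.18). On the linear scale these intervals run from 0.489-fold to 1.02-fold for Trem2 and from 0.721-fold to 1.13-fold for Cx3cr1, so that a difference of up to that size remains possible for either gene. Markers of other cells were present in these nuclei, with wide overlap between the groups, and their part in the estimates was not tested. Pan-neuronal markers summed to a median of 749.7 CPM in mate-paired animals (range 289 to 1689) and 479.9 in peer-paired animals (141 to 1848), and oligodendrocyte markers to 529 (307 to 4063) and 355 (155 to 5535). The other microglial markers had medians of 27599 and 30963 CPM, border-macrophage markers of 628 and 616, and astrocyte markers of 923 and 1023. By sex the order of the oligodendrocyte medians was not the same, with 1084 CPM in mate-paired and 314 in peer-paired females and 415 and 453 in males. Without the sub-clusters of other lineages (5 and 9), in 37 animals, the log2 fold changes were -0.09 for Cx3cr1, -0.11 for Csf1r, -0.18 for P2ry12, -0.55 for Trem2, -0.17 for C1qa, -0.23 for C1qb, -0.13 for C1qc and -0.25 for C3. Sub-clusters 2 and 6, led by Mrc1 and Apoe, and sub-cluster 7, with Dcn among its leading genes, stayed in. The part of border macrophages or vascular cells in them was not tested.

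Summed over all nuclei, the same comparison could be made in all 40 animals. C3 ran from 5.60 CPM through a median of 17.8 to 37.4 in the 22 mate-paired animals (19.3 ± 8.71 SD) and from 3.39 through 25.2 to 82.4 in the 18 peer-paired animals (27.1 ± 17.9). Cx3cr1 ran from 9.66 through 48.2 to 103 CPM (52.0 ± 27.5) and from 12.9 through 70.2 to 142 (64.9 ± 36.2), and Trem2 from 0 through 2.56 to 6.77 CPM (2.99 ± 1.72) and from 0.236 through 3.85 to 13.1 (4.57 ± 3.57). The groups overlapped for all 3, with female peer 6 highest for C3 and Cx3cr1 and male mate 2 lowest for Cx3cr1 and Trem2. The 0 of Trem2 in male mate 2, at 3931892 UMIs, allows up to 0.763 CPM. By edgeR's quasi-likelihood test 0% of 13714 genes passed after Benjamini-Hochberg adjustment, the 8 genes included, and 7.11% had an unadjusted p under 0.05. Of the 8 genes 1 had one, C3 with a log2 fold change of -0.50 (SE 0.23, interval -0.97 to -0.02, edgeR adjusted p = 0.684). All 8 were below 0, with a median of -0.42 against -0.01 over all genes, of which 52.1% were below 0. Trem2 stood at -0.63 (SE 0.32), C1qa at -0.46, C1qb at -0.43, P2ry12 at -0.40, C1qc at -0.38, Csf1r at -0.37 and Cx3cr1 at -0.33. With the block term all 8 stayed below 0, from -0.42 (Trem2) to -0.18 (C1qc), C3 at -0.27, and 0 of the 8 had an unadjusted p under 0.05. With DESeq2 none of the 8 passed in either set of nuclei. A sum over all nuclei cannot tell fewer microglia-like nuclei from less RNA in each of them.

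**Figure D3:**
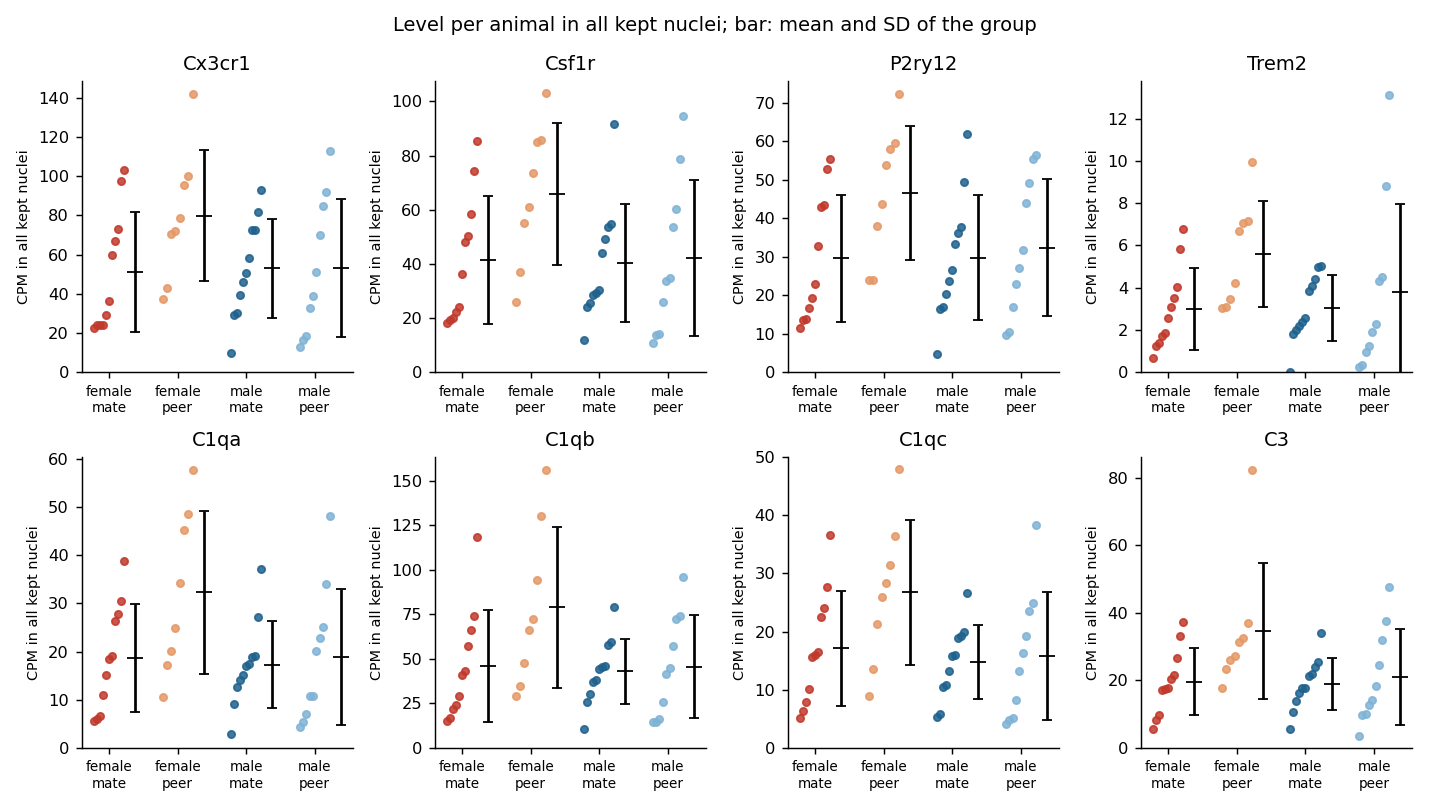
Level of each of the 8 genes summed over all nuclei (CPM), 1 point per animal, in 11 mate-paired and 8 peer-paired females and 11 mate-paired and 10 peer-paired males, with the mean and SD. The groups overlap for every gene, and female peer 6 lies highest for C3 at 82.4 CPM.

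The share of microglia-like nuclei itself was 2.56% ± 1.32 (SD, n = 22) in mate-paired and 2.91% ± 1.38 (SD, n = 18) in peer-paired animals. It was 2.68% ± 1.40 in mate-paired females, 3.58% ± 1.09 in peer-paired females, 2.44% ± 1.30 in mate-paired males and 2.37% ± 1.39 in peer-paired males. Only nuclei of at least 500 UMIs enter the share, and the median microglia-like nucleus held 608 UMIs. The part of library depth in the share was not tested. The lowest share was 0.0545%, in male mate 2, and the highest 5.88%, in a mate-paired female. In male mate 2 the cluster held 1 of 38 Cx3cr1 UMIs (2.63%), 3 of 46 of Csf1r (6.52%) and 3 of 42 of C1qb (7.14%), against 61.1 to 98.2%, 68.0 to 98.1% and 56.8 to 96.5% in the 38 animals tested within the cluster. Most UMIs of these genes in male mate 2 thus lay outside the cluster. Over all nuclei it was the lowest of the 40 animals for Cx3cr1, P2ry12, Trem2, C1qa and C1qb, but not for Csf1r, C1qc and C3. What its low share says of its number of microglia was not tested. The mate minus peer difference, averaged over the sexes, was -0.418 percentage points (two-sided permutation p = 0.326, adjusted p = 0.326 over the 3 comparisons of the share). Females exceeded males by 0.721 points (permutation p = 0.0953, adjusted p = 0.286), and the pairing difference in females less that in males was -0.973 points (permutation p = 0.25, adjusted p = 0.326). None passed. Without male mate 2 the differences were -0.299 points for pairing (permutation p = 0.474), 0.602 for sex (permutation p = 0.157) and -1.21 for their interaction (permutation p = 0.144). As a share of glial and vascular-like nuclei alone, microglia-like nuclei made up 10.9% ± 4.24 in mate-paired females, 13.6% ± 2.91 in peer-paired females, 9.81% ± 3.46 in mate-paired males and 9.41% ± 3.96 in peer-paired males. On that scale females exceeded males by 2.64 points (permutation p = 0.0343, not adjusted), and without male mate 2 by 2.29 points (permutation p = 0.0621, not adjusted).

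For sex, all 8 estimates were above 0 (females over males) when all nuclei were summed, and they lay on both sides of 0 within microglia-like nuclei. Over all nuclei the log2 fold change of females over males was 0.22 for Trem2, 0.23 for P2ry12, 0.24 for Cx3cr1, 0.32 for Csf1r, 0.36 for C3, 0.42 for C1qa and C1qb and 0.46 for C1qc, with a median of 0.34 against 0.00 over all genes, of which 49.9% were below 0. Among the 22 mate-paired animals alone Cx3cr1 (-0.07), P2ry12 (-0.03) and Trem2 (-0.08) lay below 0 and the highest was C1qc at 0.20. C1qc had the lowest p of the 8, with 0.46 (SE 0.25, interval -0.05 to 0.97, edgeR Benjamini-Hochberg adjusted p = 0.618). Neither C1qc nor any other of the 8 passed, at an adjusted p (0.0219% of genes did) or an unadjusted one (8.49%). With the term for blocks of 10 label numbers 1 of the 8 had an unadjusted edgeR p under 0.05 (5.56% of genes). Within microglia-like nuclei C1qc, C1qb and C1qa were above 0 and Cx3cr1, Csf1r, P2ry12, Trem2 and C3 below, from -0.13 (P2ry12) to 0.13 (C1qc), with a median of -0.02. Here too 0 of the 8 passed, against 0.0403% of genes by adjusted and 3.06% by unadjusted p.

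The estimate for pairing was farther below 0 in females than in males for every one of the 8 genes, but the difference between the sexes passed the test for none. Over all nuclei C3 ran from 5.63 CPM through a median of 17.6 to 37.4 in mate-paired females and from 17.6 through 29.2 to 82.4 in peer-paired females. In males it ran from 5.60 through 17.8 to 34.2 in mate-paired animals and from 3.39 through 16.4 to 47.7 in peer-paired animals. The log2 fold change of C3 for pairing was -0.82 (SE 0.34, edgeR Benjamini-Hochberg adjusted p = 0.639) in females and -0.17 (SE 0.32, adjusted p = 1.00) in males, and their difference was -0.65 (SE 0.47, interval -1.60 to 0.30, adjusted p = 1.00). In females the other values were -0.92 for Trem2, -0.78 for C1qa, -0.77 for C1qb, -0.66 for Csf1r and P2ry12, -0.65 for Cx3cr1 and -0.64 for C1qc. In males they were -0.33 for Trem2, -0.14 for C1qa and P2ry12, -0.11 for C1qc, -0.09 for C1qb, -0.08 for Csf1r and -0.02 for Cx3cr1. The difference had a median of -0.61 against -0.01 over all genes, of which 53.6% were below 0. In microglia-like nuclei the 8 values lay between -0.66 (Trem2) and -0.27 (Csf1r) in females and between -0.35 (Trem2) and -0.01 (Cx3cr1) in males. The median difference there was -0.29 against 0.01 over all genes tested, of which 48.9% were below 0. In the same nuclei pan-neuronal markers had a median of 814 CPM in mate-paired and 408 in peer-paired females, and of 598 and 487 in males, and their part in the result was not tested. By edgeR 0% of genes, and none of the 8, passed for the difference, for females or for males, in either set of nuclei.

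For the unadjusted p the background and the members' counts were as follows. Over all nuclei 7.62% of genes and 2 of the 8, C3 and C1qb, had an unadjusted p under 0.05 in females, 1.43% and 0 of the 8 in males, and 1.87% and 0 of the 8 for the difference. The count in females moved with 1 library of males, which shares in the estimate of the spread, and with the tool. It was 5 of the 8 without male mate 2 (8.51% of genes), 7 by limma-voom (7.75%) and 0 with the block term (6.10%). In microglia-like nuclei the shares were 6.33% of genes in females, 2.02% in males and 2.86% for the difference, with 0 of the 8 in each. With doublets kept it was 4 of the 8 in females (13.6% of genes).

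**Figure D4:**
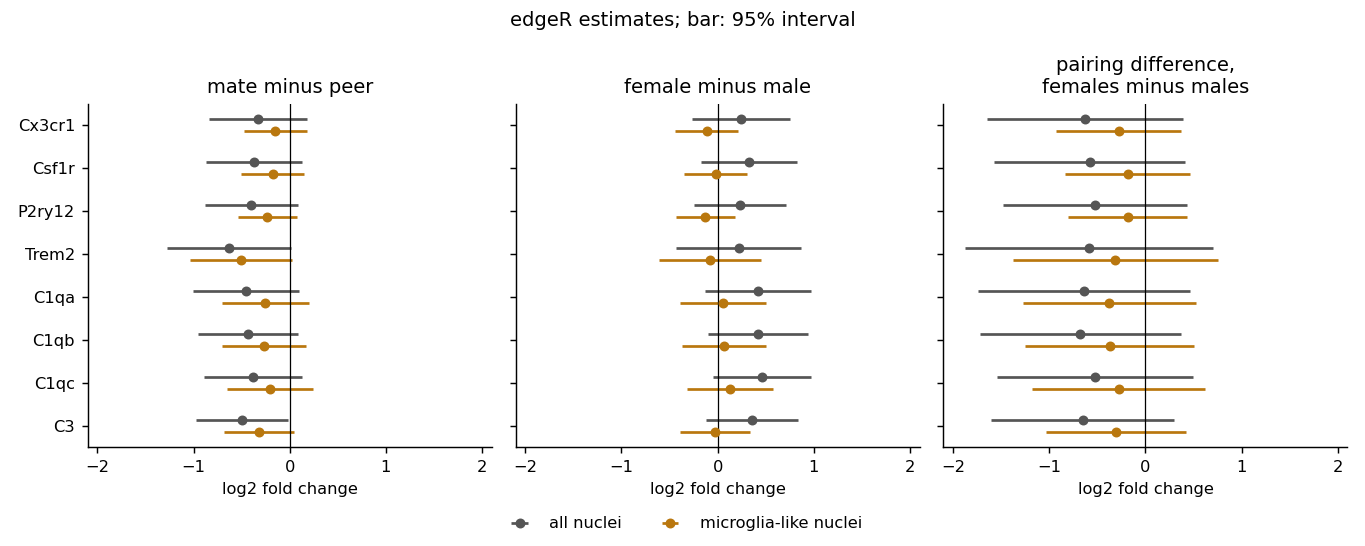
Log2 fold change of each of the 8 genes with its 95% interval, for pairing (mate over peer), sex (female over male) and the difference of pairing between the sexes, in all nuclei (40 animals) and in microglia-like nuclei (38 animals). All 8 pairing estimates lie below 0, and apart from C3 in all nuclei each interval for pairing includes 0.

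Across the 38 animals the levels of the 8 genes varied together in microglia-like nuclei. Of the 28 pairs 26 had a Benjamini-Hochberg adjusted permutation p under 0.05, for log2(CPM + 10), with Pearson's r from 0.155 to 0.932 and a median of 0.670, and Spearman's rho from 0.368 to 0.931. The C1q chains, whose genes lie side by side in the RefSeq annotation, were tied most closely. C1qa and C1qb had r = 0.932 and rho = 0.915 (n = 38, permutation p = 1e-05, the smallest that 100000 resamples can give), and the 3 pairs of chains had r from 0.915 to 0.932. Among the receptors Csf1r and P2ry12 had r = 0.851, Cx3cr1 and Csf1r 0.840, and Cx3cr1 and P2ry12 0.827. The exceptions were Trem2 with C3 (r = 0.155, permutation p = 0.349, rho = 0.368) and Trem2 with P2ry12 (r = 0.282, permutation p = 0.0838, adjusted p = 0.0869, rho = 0.435). By rank all 28 pairs passed, these 2 included, with a largest adjusted permutation p of 0.0239 (Trem2 with C3). When the 2 animals farthest from the median were left out, r lay between 0.278 and 0.919, and for deviations from the 4 group means it lay between 0.121 and 0.929. Within the groups 27 of the 28 pairs were positive in all 4, the exception being Trem2 with C3 in mate-paired females (r = -0.0854). Pairs of other genes were not examined, so whether such counts are particular to the 8 genes was not tested.

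**Figure D5:**
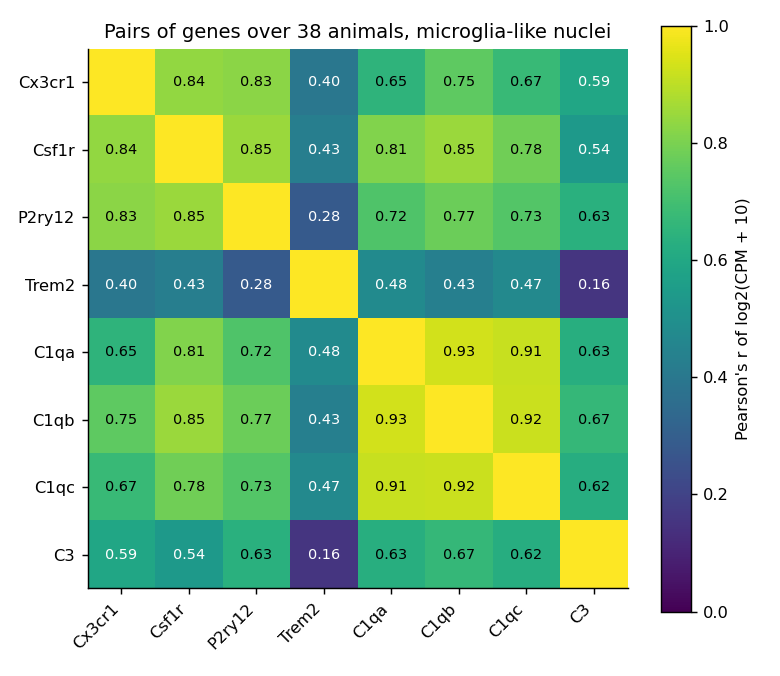
Pearson's r of log2(CPM + 10) in microglia-like nuclei between each pair of the 8 genes across 38 animals. The C1q chains form the tightest group, from 0.915 to 0.932, and the lowest value is 0.155, between Trem2 and C3.

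The amount of other RNA in the nuclei moved with the genes as well. The level of pan-neuronal markers in the microglia-like nuclei had r between -0.720 (P2ry12) and -0.319 (C3) with the 8 genes, and 7 of those 8 relations passed after adjustment over 32 relations. C3 was the exception (permutation p = 0.0507, adjusted p = 0.0811). Other microglial markers had r between 0.494 (Trem2) and 0.905 (Csf1r). The median UMI count had r between 0.00187 and 0.292, none of which passed. By rank, with p not adjusted, it had rho = 0.433 for Csf1r (permutation p = 0.00721), 0.350 for P2ry12 (permutation p = 0.0322) and 0.349 for C1qa (permutation p = 0.0326). For the rest of the 8 genes that p was over 0.05. The share of microglia-like nuclei had r between 0.0559 (C3) and 0.428 (P2ry12), and passed for P2ry12 (adjusted permutation p = 0.0162), Trem2 (0.0218) and Csf1r (0.0309). The part of neuronal RNA in the relations among the 8 genes was not tested.

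The C1q chains kept their proportions to each other more closely from animal to animal than C3 or Trem2 kept theirs to other genes. C1qa had 0.263 to 0.512 UMIs for each C1qb UMI in microglia-like nuclei (median 0.393, coefficient of variation 17.6%), and C1qc had 0.169 to 0.482 (median 0.331, 18.8%). The ratio of P2ry12 to Cx3cr1 varied by 20.2% and that of Csf1r to Cx3cr1 by 20.1%. C3 varied by 40.1% relative to C1qb. Relative to Cx3cr1, C1qb varied by 31.3%, close to C3 with 34.0%, and Trem2 by 59.7%. The median animal gave 24 Trem2 UMIs over all nuclei, and counting error was not separated from the spread between animals.

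The ligands of the receptors were highest in neurons, oligodendrocytes and astrocytes, and the adaptor Tyrobp in the microglia-like nuclei. Beside genes of each list with the highest levels there, some named here were chosen after their values were seen. Cx3cl1, the fractalkine that Cx3cr1 binds, stood at 1185 CPM outside the microglia-like nuclei and was highest in a D2 medium spiny neuron-like cluster (1777 CPM). Il34 was highest in a glutamate neuron-like cluster (240 CPM) and Csf1, the other ligand of Csf1r, in the oligodendrocyte-like cluster 5 (220 CPM). Apoe and Clu, which TREM2 binds, were highest in astrocyte-like nuclei at 11937 and 2220 CPM, and Apoe was at 2079 CPM in microglia-like nuclei. Tyrobp, the adaptor of TREM2, was microglial, at 100 CPM against 0.433 elsewhere. P2ry13, the neighbour of P2ry12 in the RefSeq annotation and a nucleotide receptor itself, stood at 1096 CPM, Tgfbr1, a receptor of TGF-beta, at 1011, and Entpd1, which breaks down extracellular ATP and ADP, at 801 CPM in microglia-like nuclei. Nt5e, which turns the product of Entpd1 into adenosine, was highest in astrocyte-like nuclei (467 CPM).

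Of the rest of the complement system, 4 receptor genes were highest in the microglia-like nuclei. Itgam and Itgb2, which form complement receptor 3, stood at 1023 and 733 CPM in microglia-like nuclei, C3ar1, the receptor of the C3a fragment, at 620 CPM, and C5ar2, a receptor of the C5a fragment, at 20.3 CPM. Calr, a chaperone that C1q can bind, was at 1023 CPM there and 774 CPM elsewhere. Vtn and C7 were highest in vascular-like nuclei (1187 and 153 CPM), as was Cd93 (112 CPM), and Masp1 was highest in oligodendrocyte-like cluster 5 (218 CPM). Vsig4, a macrophage receptor of C3 fragments, had 0 UMIs in all kept nuclei. The complement receptor genes Itgax and Cr2 were at 3.22 and 0.965 CPM in microglia-like nuclei, with their highest levels in other clusters.

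Among homeostatic microglial genes Cst3 stood at 46715 CPM in microglia-like nuclei, Ctss at 9882 and Tmem119 at 1965 CPM. Among genes of activated microglia the highest levels were those of Ctsb (2234), Apoe (2079), B2m (992) and Fth1 (510). None of the genes of the 4 lists around the 8 genes passed the edgeR test with Benjamini-Hochberg adjustment in any comparison. For pairing over all nuclei, where 7.11% of all genes had an unadjusted p under 0.05, the 23 other complement genes tested had a median log2 fold change of -0.01, with 1 unadjusted p under 0.05. The 21 ligands and partners had -0.06, with 3. The 14 homeostatic microglial genes had -0.27, with 1 of 14 above 0 and 3 unadjusted p under 0.05, and the 14 genes of activated microglia had -0.15, with 2. In microglia-like nuclei, where 6, 13, 12 and 9 of these genes could be tested, the medians were 0.03, -0.06, -0.15 and -0.28. Tyrobp stood at -0.76 in microglia-like nuclei (SE 0.30, edgeR adjusted p = 0.909) and -0.70 over all nuclei (SE 0.27, adjusted p = 0.684). Other genes of the same list in microglia-like nuclei were nearer to 0, with Inpp5d at -0.06, Syk at -0.01 and Apoe at 0.08.

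By likeness of level across the 18 clusters, among 14655 genes, the genes closest to each of the 8 were themselves microglial. C3 and Csf1r were each other's closest gene (r = 0.994 of log2(CPM + 1)), and C1qb was the closest gene to C1qc (0.987). After each other, C3 was nearest to Cd5l and Cx3cr1, and Csf1r to a gene without a symbol and Fcer1g. Tmem119 (0.988), C1qc and P2ry12 were nearest to C1qb, and Tmem119 and a gene without a symbol followed C1qb for C1qc. Laptm5 (0.992), C3 and Cx3cr1 were nearest to C1qa, Ctss (0.987), a gene without a symbol and Tmem119 to P2ry12, and Vav1 (0.988), Wdfy4 and Fcgr4 to Trem2. For Cx3cr1 the closest gene has no symbol, and Ctss (0.994) and Cd53 (0.993) followed. The values rest on 1 cluster with high levels and 17 with low ones, so they describe a shared location and nothing finer.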

How the data were processed

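Nuclei were isolated from dissected accumbens and captured with 10x chemistry, per the labels' protocols; Cell Ranger 3.1.0 is named in the submitters' processing notes. The deposited unit is counts: whole UMI counts per gene and barcode, used as deposited. The genome build, annotation and strand setting are not given in the sources used here. The filter on barcodes was a minimum of 500 UMIs and a maximum of 5% mitochondrial UMIs, which 185995 of 194518 met. Doublets were marked by nearness to simulated doublets at 0.8% per 1000 barcodes, and 8004 nuclei (4.30%) were removed. Clusters were made with scanpy 1.11.5 (2000 variable genes without the 8 genes, 30 components, 15 neighbours, resolution 1) and named from 20 marker lists, each name needing 3 markers past a log2 fold of 1; 3 clusters stayed unnamed (10.1% of nuclei).

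Counts were summed per animal over all nuclei, or over microglia-like nuclei in animals with at least 20, and tested with edgeR 4.0.16 (R 4.3.3) in quasi-likelihood fits of the 4 groups, with p-values adjusted over all genes tested by Benjamini-Hochberg. Intervals are 95%. Shares and correlations used permutation tests with 100000 resamples (scipy 1.17.1). CPM are of summed counts. On simulated data, with 100 genes changed 2-fold and 100 changed 1.5-fold, 99 and 82 of them were recovered in all nuclei (13617 genes tested) and 98 and 52 in microglia-like nuclei (2395 tested), with 13 unchanged genes called in each. The simulated spread followed the trend over genes, and many genes were changed at once, which eases the adjustment. These counts are therefore not the power for the 8 genes. By rule the 8 genes are named in each comparison (by their range where values are many), with the 3 genes most like each across clusters. Of each fixed list the 4 genes highest in microglia-like nuclei are named, except 1 gene that is not reported here. The members and lists were chosen with earlier results of these data known. Each library is 1 animal, so p-values measure the spread between animals. Alternatives tried were DESeq2 1.42.0, RLE factors, no filter on low counts, doublets kept, resolution 2, at least 50 nuclei, blocks and couples of label numbers, limma-voom (limma 3.58.1) and libraries left out. RefSeq gene names and neighbours come from assembly MicOch1.0. Sequences of the 8 genes were not used here.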

Additional observations from a re-analysis of the deposited data

Results flagged for a closer look

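Of 42 sets of values from groups of 4 to 10 animals, 3 (7.14%) held an animal whose distance from the nearest other exceeded Dixon's limit, where chance gives about 5%. Groups of 11 were not screened. These were the mate-paired females throughout, and the mate-paired males over all nuclei and for the share of microglia-like nuclei. C3 over all nuclei was 82.4 CPM in female peer 6, and the next of the 8 peer-paired females stood at 37.1 CPM. The same animal had the highest C3 in microglia-like nuclei, 4744 CPM. P2ry12 in microglia-like nuclei was 1158 CPM in male peer 2, against 3028 CPM in the next lowest of 9 peer-paired males, and that animal was also the lowest peer-paired male for Cx3cr1, Csf1r, C1qa, C1qb, C1qc and C3. Among peer-paired males pan-neuronal markers in these nuclei reached 1848 CPM and other microglial markers fell to 10891 CPM. Their part in this value was not tested. C1qa in microglia-like nuclei was 3700 CPM in male peer 7, against 2131 CPM in the next highest, and the same animal had the highest Trem2, 1013 CPM.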

How the results depend on the processing

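The number of the 8 genes that passed was 0 in each of the 68 alternative counts. Male mate 2 was in no fit within microglia-like nuclei, so leaving it out there only repeats the main result, though it is counted. Of the single estimates 527 kept their direction and 17 turned, all near 0, 15 of them in microglia-like nuclei. With blocks of 10 label numbers, C1qa for pairing was 0.00146, C1qc for pairing 0.0452, Trem2 for sex 0.0389 and C3 for sex 0.0298. With doublets kept, Csf1r for sex was 0.0299 and C3 0.0360, without a filter on low counts 0.0209 and 0.0185, and without sub-clusters of other lineages, an alternative added after seeing the data, 0.0168 and 0.0428. With at least 50 nuclei, C1qa for sex was -0.0151. Limma-voom, also added after seeing the data, gave -0.0422 for C1qa and -0.0702 for C1qb for sex, and called 1 gene for pairing in microglia-like nuclei and 1 in females alone (edgeR 0 and 0). For pairing in females over all nuclei 7 of the 8 had an unadjusted p under 0.05 by limma-voom (7.75% of genes), 6 with the correlation described below (5.90%), 5 without male mate 2 (8.51%), 3 without a filter on low counts, 1 with doublets kept and 0 with the block term, against 2 by edgeR (7.62%). Over the alternatives Trem2 for pairing in microglia-like nuclei lay between -0.62 and -0.33 (lowest edgeR adjusted p = 0.387), and C3 between -0.44 and -0.06. Over all nuclei C3 lay between -0.50 and -0.27. As a share of glial and vascular-like nuclei, microglia-like nuclei were higher in females by 2.64 percentage points (permutation p = 0.0343), and without male mate 2 by 2.29 (permutation p = 0.0621). Leaving out male mate 2 gave -0.299 points for pairing and 0.602 for sex in the share of all nuclei. No sample number recurs between groups and no label names partners. Odd-even couples of label numbers (1 and 2, 3 and 4, and so on) share the pairing type, and each couple of mate-paired animals holds 1 female and 1 male; whether they shared a cage is not given in the sources used here. A fixed term for couples leaves no contrast between mate and peer. Within mate-paired animals, with a replicate block for couples added after seeing the data, 0 of the 8 passed for sex over all nuclei (11 couples) and 0 in microglia-like nuclei (10 couples), as without it, and over all nuclei C1qb turned from 0.08 to -0.0383 and C3 from 0.03 to -0.0285. With 1 correlation within couples for all genes estimated in limma-voom (0.181 over all nuclei, 0.0375 in microglia-like nuclei), 0 of the 8 passed for pairing or sex. The 8 genes' own correlations ran from -0.00566 (C1qc) to 0.277 (Trem2) over all nuclei and from -0.175 (Trem2) to 0.365 (P2ry12) in microglia-like nuclei, where 6 of the 8 exceeded 0.1, so for most of them that fit took less correlation than their own. In it C1qa and C1qb for sex in microglia-like nuclei were -0.0368 and -0.0646. Depth limits Trem2 most, with a median of 24 UMIs an animal over all nuclei.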

Other observations

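The deposited matrix of male mate 2, the animal with 3 microglia-like nuclei, held 6375 barcodes under the minimum of 500 UMIs. These had a median of 344 UMIs and held 349 UMIs of the 8 genes, 159 CPM, and 45 of them (0.706%) had 3 or more. Its 6144 barcodes at or over the minimum held 260, 57.3 CPM, and 25 (0.407%) had 3 or more. Cx3cr1 had 73 UMIs under the minimum and 50 over it, C1qb 62 and 58, and C3 49 and 28, while Trem2 had 0 in both. In every other deposited matrix the lowest barcode held 500 or 501 UMIs. Barcodes under the minimum could therefore not be looked at in any other animal.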
